A study of Homo sapiens with 3 samples.

Results

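The barcodes described here are non-endothelial droplets of human blood vessel organoids that carried RNA of several oxygen-regulated genes together with very little RNA from the mitochondrial genome. A barcode was taken when it had at least 1000 UMIs (counted RNA molecules) and 500 detected genes, when at most 2% of its UMIs came from the mitochondrial (MT-) genes, and when at least 3 of 6 genes (ANKRD37, STC2, HILPDA, VEGFA, ARG2 and NMB) had a UMI. It also had to have a UMI in fewer than 3 of 7 endothelial genes, namely PECAM1, CDH5, CLDN5, TIE1, KDR, CLEC14A and CD93. These conditions were met by 1507 barcodes, out of 24679 at the required depth and 26959 in all. The members were thus chosen by measured values. Their levels of the 6 genes and of the mitochondrial genes are given as a description only.

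The organoids were grown from H1 human embryonic stem cells, an established line, that carry a PiggyBac-integrated, doxycycline-inducible cassette for NEUROD1, a transcription factor that drives neuronal fate, linked through P2A to GFP. All 3 libraries were taken on day 45 from 5 to 6 pooled organoids that received BDNF and NT-3 from day 15, and were read with Chromium 3′ chemistry, version 3. One library had no NEUROD1 induction, one is labelled with 15 days and one with 45 days of induction by 1 µg/ml doxycycline. The uninduced organoids had 0 µg/ml, so doxycycline itself and NEUROD1 induction cannot be told apart. Which 15 of the days were induced is not given in the sources used here. With 1 library per group, no difference between groups could be tested, and every interval below is a 95% interval that covers counting error alone. Values in threes follow the order uninduced, 15 days, 45 days.

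The uninduced, 15-day and 45-day libraries held 9242, 5563 and 9874 barcodes at depth, with a median of 5214, 7222 and 5645 UMIs. Pairs of libraries shared 13 to 33 barcode sequences, and no shared sequence was a member in both. NEUROD1 itself stood at 0.595 CPM (UMIs scaled to a common total; 1 UMI), 3.39 CPM and 52.8 CPM in the summed RNA of the hypoxic, low-mitochondrial barcodes. In the other non-endothelial barcodes NEUROD1 stood at 1.46, 1.21 and 43.0 CPM, so the library labelled 15 days was not above the uninduced one. A 3′ tag of a NEUROD1-P2A-GFP transcript need not map to NEUROD1, so this is a limited check of the labels.

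Cells short of oxygen stop degrading the hypoxia-inducible factors HIF-1α and HIF-2α, which then bind DNA with ARNT and switch on genes for glucose uptake, glycolysis, vessel growth and collagen hydroxylation. The same response lowers the use of mitochondria, through pyruvate dehydrogenase kinase and through mitophagy receptors such as BNIP3. In tissue grown without a blood supply, the cells farthest from the medium are the ones known to mount it. Of the 6 genes of the rule, VEGFA encodes the growth factor that draws in endothelial cells, HILPDA inhibits lipid droplet breakdown, STC2 is a secreted glycoprotein of the stress response, ARG2 is the mitochondrial arginase, NMB encodes the peptide neuromedin B, and ANKRD37 is an ankyrin-repeat protein and a HIF target.

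HIF binds the core ACGTG or GCGTG in its target promoters, so the promoter windows of the rule genes and of P4HA1 are shown for what they hold of it. The search covered the 250 bases before each RefSeq start site (GRCh38.p14) on both strands. In each line capitals mark a single core, and a core on the opposite strand reads CACGT or CACGC. Each line is 25 bases, 5′ to 3′ on the gene's strand. The ANKRD37 window at chr4:185396670-185396694 also holds the core on the opposite strand, overlapping the one in capitals. The others are STC2 at chr5:173328622-173328646 (minus strand), ARG2 at chr14:67619753-67619777, NMB at chr15:84658373-84658397 (minus strand) and P4HA1 at chr10:73096938-73096962 (minus strand). The STC2 line also holds a core on the opposite strand (cacgc), left in lower case.
ANKRD37: gccgggctccACGTGccagtgtttg
STC2: gcacgcaaacGCGTGgccgccgcca
ARG2: tcatcgaaggCACGTcccagccttg
NMB: agcggtgcccGCGTGcgggccagag
P4HA1: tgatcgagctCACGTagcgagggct

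All 4 rule genes with a listed promoter held a core, against 15172 of 35116 promoters (43.2%) overall. HILPDA and VEGFA were not in the promoter table. IGFBP2 had no match in its window, which says only that these letters are not there. Of 22 promoters from a list of 27 HIF targets, 17 held a core (77.3%), as did 14 of 24 glycolysis promoters (58.3%) and 18 of 35 promoters of nuclear-encoded respiratory chain genes (51.4%). A match of 5 letters is common and is a description, not a bound site.

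In the coordinates of GENCODE 29 (GRCh38), the rule genes lie on different chromosomes: ANKRD37 on chromosome 4 (185396021 to 185400628), STC2 on 5 (173314713 to 173329503), VEGFA on 6 (43770184 to 43786487), HILPDA on 7 (128455849 to 128458418), ARG2 on 14 (67619798 to 67651720) and NMB on 15 (84655129 to 84658563). They are all protein coding.

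Hypoxic, low-mitochondrial barcodes were 206 of 9242 in the uninduced library (2.23%, 1.94 to 2.55), 460 of 5563 in the 15-day library (8.27%, 7.56 to 9.02) and 841 of 9874 in the 45-day library (8.52%, 7.97 to 9.09). The share in the library labelled 15 days was 3.71 times that of the uninduced library (3.16 to 4.36), and the 45-day share was 3.82 times (3.29 to 4.44). The 2 induced libraries differed from each other by a ratio of 1.03 (0.924 to 1.15), an interval that includes no difference. Depth bears on this share, because a deeper barcode has more chances to show 3 of 6 genes. With each barcode thinned at random to 2000 UMIs, 26 of 8737, 106 of 5169 and 256 of 9204 barcodes still met the rule, which is 0.298% (0.194 to 0.436), 2.05% (1.68 to 2.47) and 2.78% (2.46 to 3.14). Barcodes under 2000 UMIs were left out of this count. At this matched depth the ratios to the uninduced library were 6.89 (4.49 to 10.6) and 9.35 (6.25 to 14.0), and the 45-day share exceeded the 15-day share by a ratio of 1.36 (1.08 to 1.70). The uninduced share was thus the lowest at both depths. The ratios to it also depended on the rule: they were 2.06 and 2.41 with 2 genes required, 10.1 and 8.21 with 4, and 2.44 and 2.44 without the barcodes of the cluster that held the most members. The order of the induced libraries turned with the number of genes, from a 45-day over 15-day ratio of 1.17 with 2 to 0.811 with 4.

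**Figure D1:**
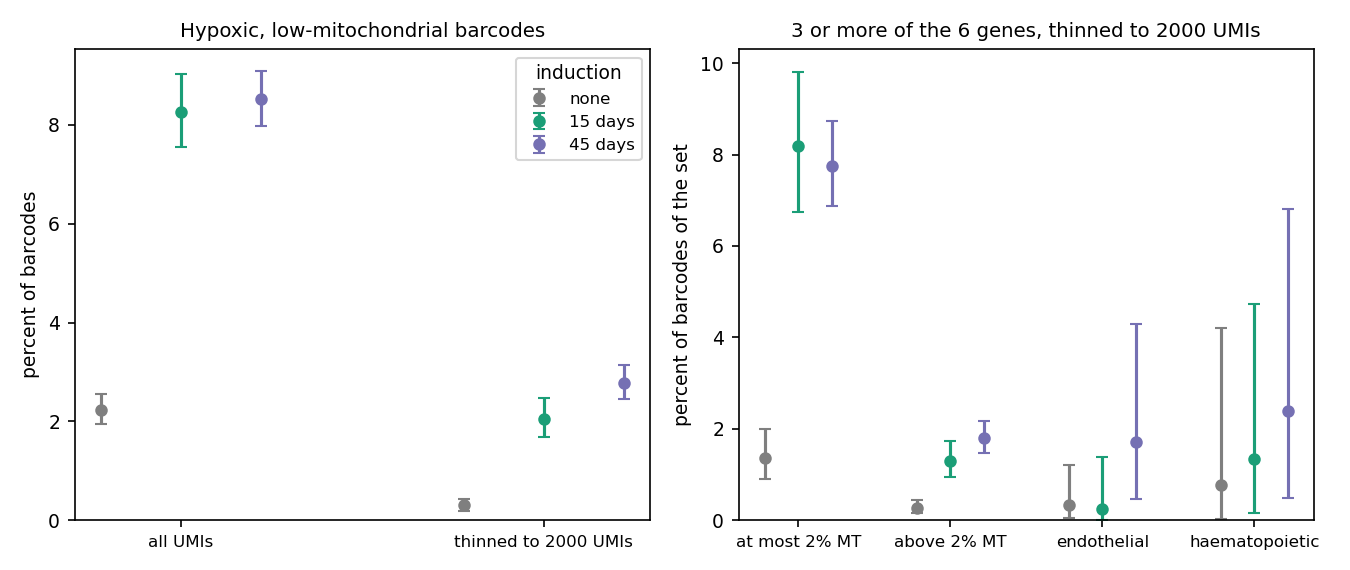
Left, percent of barcodes that met the rule in each library, with all UMIs and after thinning every barcode to 2000 UMIs. Right, percent of barcodes with 3 or more of the 6 genes after thinning, among non-endothelial barcodes at or below 2% MT- UMIs and above it, endothelial barcodes and barcodes with 3 haematopoietic genes. Points are shares and bars are exact 95% binomial intervals (counting error). The uninduced share is the lowest in both left panels, at 2.23% and 0.298%.

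Both conditions of the rule contributed. Among non-endothelial barcodes up to 20% MT- UMIs, the share at or below 2% was 24.04%, 28.0% and 36.5%. Within those low-mitochondrial barcodes, 206 of 2001 (10.3%), 460 of 1381 (33.3%) and 841 of 3426 (24.5%) had 3 of the 6 genes. On this denominator the 45-day share was 0.737 times the 15-day share (0.670 to 0.810). Thinning to 2000 UMIs brought the low-mitochondrial shares to 1.37% (0.894 to 1.99), 8.19% (6.75 to 9.81) and 7.76% (6.87 to 8.72), so that the 2 induced libraries overlapped. Above 2% the thinned shares were 0.275%, 1.29% and 1.79%.

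Free RNA in the droplets can place UMIs of the 6 genes in any cell. Barcodes with UMIs of 3 haematopoietic genes had 3 of the 6 genes in 8 of 149, 19 of 170 and 23 of 146 cases (5.37%, 11.2% and 15.8%). Endothelial barcodes, at a median of 6923, 8217 and 6448 UMIs, did so in 7.21%, 10.1% and 15.9%. After thinning to 2000 UMIs the haematopoietic share was 0.769% (0.0195 to 4.21), 1.33% (0.162 to 4.73) and 2.38% (0.494 to 6.80), and the endothelial share was 0.337%, 0.251% and 1.70%. The low-mitochondrial shares of the induced libraries stood above both, with intervals apart. At 45 days this was narrow, with a lower limit of 6.87 against a haematopoietic upper limit of 6.80. The thinned haematopoietic shares rest on 1, 2 and 3 barcodes. Neither set was limited to low-mitochondrial barcodes, and the part of free RNA was not tested. In the uninduced library the low-mitochondrial share of 1.37% lay within the haematopoietic interval. That interval rests on 1 of 130 barcodes and is too wide to decide whether the shares differ. The endothelial interval of that library (0.0409 to 1.21) overlapped the low-mitochondrial one (0.894 to 1.99).

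The members did not all lie far inside the rule. Exactly 3 genes were seen in 162 of the uninduced members (78.6%), 192 of the 15-day members (41.7%) and 455 of the 45-day members (54.1%). No uninduced member showed all 6 genes, while 34 and 31 members of the induced libraries did. Members with exactly 3 genes had 662, 706 and 966 CPM of the 6 genes, and the 403, 296 and 729 low-mitochondrial barcodes just outside the rule, with exactly 2, had 517, 463 and 547 CPM. Glycolysis RNA, which the rule did not use directly, followed in the induced libraries: 12470 and 13615 CPM in barcodes with exactly 2 genes, 17618 and 18055 CPM with exactly 3, and 25317 and 27531 CPM with all 6. In the uninduced library it stood at 12044 CPM with 2 genes, 12598 CPM with 3, 16043 CPM with 4 (34 barcodes) and 13624 CPM with 5 (10 barcodes). At the mitochondrial limit, the 15, 33 and 59 members between 1.8% and 2% MT- UMIs had 12038, 17138 and 17061 CPM of glycolysis RNA, and the 9, 25 and 49 barcodes just above 2% and up to 2.2% had 12149, 17179 and 20688 CPM. The barcodes on either side of 2% thus had similar glycolysis RNA in the uninduced and 15-day libraries.

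Barcodes with less mitochondrial RNA more often showed the hypoxia genes, up to a mitochondrial share of 10%. The share of barcodes with 3 of the 6 genes was 12.9%, 50.1% and 35.9% at or below 0.5% MT- UMIs, and 2.58%, 8.71% and 7.37% between 5% and 10%. It was higher again, at 4.21%, 12.5% and 7.48%, in the last bin, from 10% to 20%. The barcodes of the lowest bin were not the deeper ones, with a median of 4374.5, 7050 and 5212 UMIs against 5614, 8062 and 6355 UMIs between 5% and 10%. The same bins showed more RNA of glycolysis genes at low mitochondrial shares. In CPM of the non-mitochondrial UMIs, the 25 glycolysis genes summed to 12203, 18784 and 17829 at or below 0.5% MT- UMIs to 5184, 7528 and 7124 between 5% and 10%, and to 6426, 9010 and 9048 in the last bin. The 27 HIF targets went from 3284, 5029 and 4621 down to 1229, 2084 and 1868 over the same bins. Collagen-modifying enzymes and ATF4 targets differed more between the libraries: ATF4 targets went from 2089 to 849 in the 15-day library and from 995 to 832 in the uninduced one. Nuclear-encoded respiratory chain genes showed no such slope, with 13551, 13197 and 12898 in the lowest bin and 13600, 15270 and 14208 between 5% and 10%. Nuclear-retained RNAs such as MALAT1 and NEAT1, which mark damaged cells that have lost cytoplasm, also stood higher in the lowest bin (35786, 38317 and 41733) than between 5% and 10% (25630, 26328 and 26854). They stood at 28000, 32626 and 33429 in the last bin. Ribosomal protein RNA was also higher in the lowest bin (380535, 303546 and 315613) than between 5% and 10% (325041, 264827 and 294069). The part of these RNAs in the result was not tested.

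**Figure D2:**
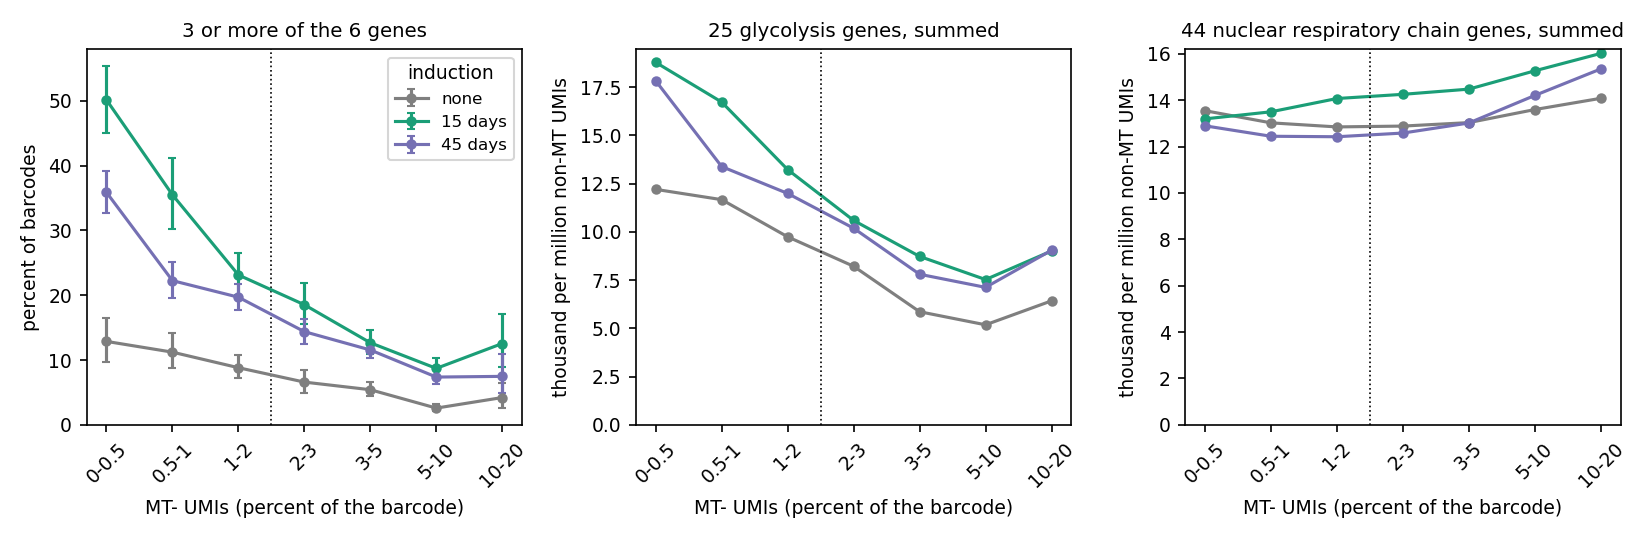
Non-endothelial barcodes at depth binned by their percent of MT- UMIs (x axis), by library. Left, percent with 3 or more of the 6 genes, with exact 95% intervals. Middle and right, summed level of 25 glycolysis genes and of 44 nuclear-encoded respiratory chain genes in CPM of non-mitochondrial UMIs (axis in units of 1000). The dotted line is the 2% limit. The left and middle curves descend toward the 5 to 10% bin, and the right ones do not.

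A further 3 sets of non-endothelial barcodes served as the frame for the levels that follow. The other low-mitochondrial barcodes (at most 2%, fewer than 3 genes) numbered 1795, 921 and 2585. The hypoxic higher-mitochondrial barcodes (3 or more genes, above 2% and up to 20%) numbered 256, 429 and 630. Those meeting neither condition numbered 6065, 3117 and 5341. Median depth was 6107.5, 9433 and 6026 UMIs in the hypoxic, low-mitochondrial barcodes, 4551, 6134 and 5058 in the other low-mitochondrial barcodes, and 12366, 13880 and 8223.5 in the hypoxic higher-mitochondrial barcodes. Levels are CPM of the summed UMIs of a set. A gene was compared when it reached 50 CPM in at least 1 of 2 sums, and was counted as apart at a 2-fold ratio after 5 CPM were added to each side.

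The rule genes, which chose the members, came out as follows. VEGFA stood at 228, 348 and 395 CPM against 90.3, 114 and 115 CPM in the other low-mitochondrial barcodes. HILPDA stood at 245, 279 and 366 CPM against 83.4, 79.0 and 90.4 CPM. ANKRD37 had 142, 224 and 257 CPM against 44.9, 41.7 and 38.4 CPM. The lower ones were ARG2 at 88.7, 119 and 129 CPM, STC2 at 56.5, 109 and 87.7 CPM, and NMB at 29.2, 64.9 and 102 CPM. Each of the 6 was lowest in the uninduced members.

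The label also names P4HA1 and IGFBP2, which the rule did not use. P4HA1, the catalytic subunit of collagen prolyl hydroxylase and a HIF target (chromosome 10, 73007217 to 73096974), stood at 410, 506 and 591 CPM against 287, 264 and 257 CPM in the other low-mitochondrial barcodes, ratios of 1.43 (1.31 to 1.56), 1.91 (1.796 to 2.04) and 2.30 (2.19 to 2.41). It was higher in all 3 libraries. IGFBP2, a secreted binding protein for insulin-like growth factors (chromosome 2, 216632828 to 216664436), stood at 843, 2319 and 2067 CPM against 869, 722 and 824 CPM. Its ratio was 0.970 (0.916 to 1.03) in the uninduced library, 3.21 (3.10 to 3.33) at 15 days and 2.51 (2.45 to 2.57) at 45 days. Against this set, IGFBP2 was thus higher in the members of the induced libraries and not in those of the uninduced one.

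Set against the other low-mitochondrial barcodes, the uninduced members had 111 genes past the 2-fold limit upward and 7 downward, of 2631 compared (4.22% and 0.266%). The 15-day library gave 146 higher and 50 lower of 3126 (4.67% and 1.6%), and the 45-day library 69 higher and 10 lower of 2934 (2.35% and 0.341%). The median of all genes compared lay at 0.02, 0.02 and 0.00 on the log2 scale.

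HIF targets outside the rule were higher as a group. Of the list's 27 genes, 16, 21 and 21 were compared, all of them above 0, and 6, 10 and 11 were at least 2-fold higher. Their median log2 ratio was 0.73, 0.83 and 1.07. NDRG1, a stress-response gene induced by hypoxia, stood at 119, 216 and 182 CPM against 25.4, 41.1 and 47.2 CPM, ratios of 4.69 (3.86 to 5.71), 5.25 (4.57 to 6.06) and 3.86 (3.499 to 4.26). ADM, the vasodilator peptide adrenomedullin, stood at 73.2, 113 and 66.8 CPM against 13.8, 29.8 and 17.0 CPM, and 26.0% of its uninduced UMIs came from 1 barcode. BHLHE40, a transcriptional repressor, had 71.4, 79.9 and 74.5 CPM against 18.5, 25.5 and 24.5 CPM. DDIT4, which restrains mTORC1, was abundant at 435, 562 and 641 CPM against 207, 197 and 241 CPM, ratios of 2.11 (1.93 to 2.30), 2.86 (2.67 to 3.06) and 2.66 (2.54 to 2.78). BNIP3, the mitophagy receptor, was higher by less: 911, 976 and 781 CPM against 592, 546 and 491 CPM. NDUFA4L2, which lowers respiratory complex I activity, stood at 345, 76.1 and 150 CPM against 41.1, 32.2 and 32.0 CPM, and was the one of these highest in the uninduced members. HIF1A itself, which is regulated chiefly as a protein, stood at 52.97, 74.2 and 57.4 CPM against 54.4, 68.2 and 68.6 CPM.

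Glycolysis genes were above 0 in every comparison made (16, 22 and 21 of 25 compared), with 3, 12 and 9 at least 2-fold higher and medians of 0.43, 1.03 and 0.96. Their summed level was 13262, 20657 and 20587 CPM against 10108, 10505 and 10678 CPM, and the induced members stood apart from the uninduced ones. SLC2A1, the glucose transporter GLUT1, stood at 261, 291 and 317 CPM against 73.7, 86.9 and 113 CPM, ratios of 3.54 (3.13 to 4.0), 3.35 (3.03 to 3.71) and 2.82 (2.64 to 3.02). ENO1, an enolase, stood at 1863, 3076 and 2917 CPM against 1453, 1703 and 1601 CPM. PGK1, phosphoglycerate kinase, stood at 876, 1482 and 1467 CPM against 669, 697 and 631 CPM. LDHA, which turns pyruvate into lactate, stood at 2402, 2727 and 3133 CPM against 1737, 1561 and 1605 CPM. PFKFB4, a regulator of glycolytic flux, separated the induced libraries from the uninduced one: 22.6 CPM against 18.99 CPM uninduced, with an interval of the ratio (0.814 to 1.70) that includes no difference, and 77.4 and 78.2 CPM against 23.1 and 25.3 CPM in the others.

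A low mitochondrial share alone already went with high glycolysis RNA. Barcodes meeting neither condition had 483, 713 and 745 CPM of ENO1 and 606, 676 and 768 CPM of LDHA, below the other low-mitochondrial barcodes in every library. They had 229, 307 and 325 CPM of PGK1.

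**Figure D3:**
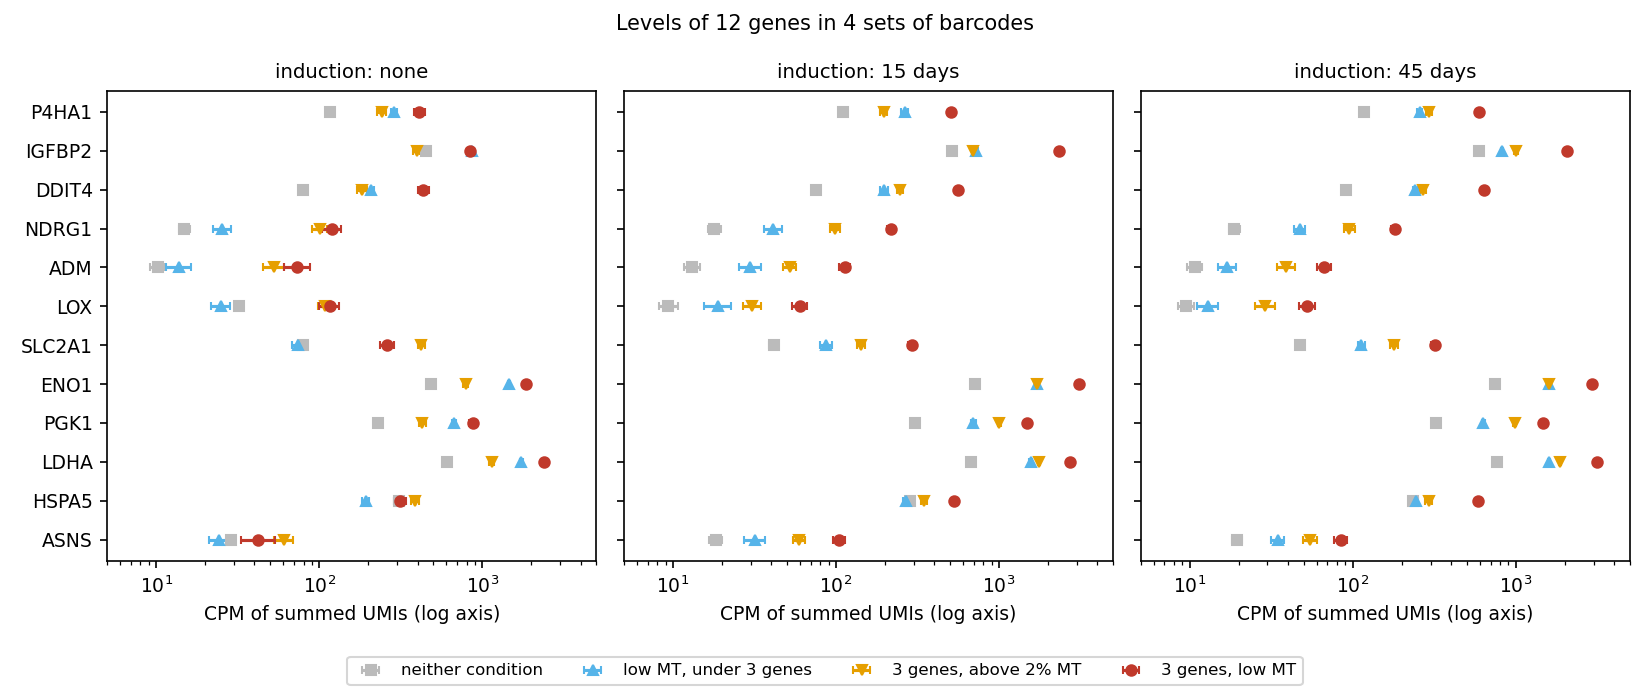
Level of 12 genes (CPM of summed UMIs, log axis) in the 4 sets of non-endothelial barcodes of each library. Bars are exact 95% Poisson intervals, often smaller than the points. The red circles (hypoxic, low-mitochondrial) lie to the right of the grey squares (neither condition) for all 12 genes in the induced libraries. SLC2A1, HSPA5 and ASNS lie below the hypoxic higher-mitochondrial barcodes in the uninduced library.

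Collagen-modifying enzymes were above 0 in every comparison made (9, 9 and 8 of 11), with medians of 0.67, 0.78 and 1.11. PLOD2, a lysyl hydroxylase, stood at 221, 259 and 249 CPM against 101, 99.0 and 83.8 CPM. LOX, which cross-links collagen, stood at 115, 59.9 and 52.6 CPM against 24.9, 18.8 and 12.9 CPM, and 22.7% of its uninduced UMIs lay in 1 barcode. Endoplasmic reticulum chaperones had medians of 0.36, 0.71 and 0.91, with 0, 1 and 4 of 10, 10 and 11 compared at least 2-fold higher. HSPA5, the main one, stood at 313, 532 and 583 CPM against 192, 270 and 244 CPM. DNAJB9 stood at 65.5, 119 and 163 CPM against 48.9, 54.9 and 65.5 CPM. Targets of ATF4, the factor of the integrated stress response, had medians of 0.48, 0.54 and 0.92. Among them ASNS, asparagine synthetase, stood at 42.3, 104 and 84.3 CPM against 24.1, 31.7 and 34.6 CPM. TRIB3 stood at 14.9, 47.6 and 45.6 CPM against 9.32, 14.8 and 12.01 CPM, with an interval of the uninduced ratio (0.977 to 2.52) that includes no difference.

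The nuclear part of the respiratory chain was flat. Of 44 genes, 42 were compared in each library, none was 2-fold apart, and the medians were -0.06, 0.04 and -0.01. Enzymes of the citric acid cycle and of mitochondrial import had medians of 0.07, 0.16 and -0.03. Heat shock genes (0.01, 0.26 and -0.10), immediate early genes (-0.10, -0.08 and 0.27) and nuclear-retained RNAs (-0.03, -0.06 and 0.14) also lay near 0. Ribosomal protein genes lay slightly lower, at -0.10, -0.15 and -0.09. Members and other low-mitochondrial barcodes were thus closer in these lists than in the HIF and glycolysis lists.

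Markers of other cell types moved with the members, and differently in each library. Epithelial genes were 2-fold higher for 5 of 5, 5 of 6 and 5 of 6 compared, with summed levels of 2741, 2898 and 1587 CPM against 591, 915 and 748 CPM. With barcodes thinned to 1000 UMIs, which left 6 uninduced and 31 15-day members, the epithelial median turned to -0.15 and -0.55 in those libraries. KRT18 stood at 900, 517 and 383 CPM against 212, 205 and 122 CPM, and 45.8% of its uninduced UMIs lay in 1 barcode. Neuronal genes summed to 217, 3673 and 1103 CPM against 272, 1435 and 793 CPM. UMIs of 3 or more of the 12 neuronal genes were seen in 1.94%, 47.6% and 17.1% of the members. The share was 1.28%, 32.0% and 13.4% in the other low-mitochondrial barcodes, and 3.91%, 60.8% and 30.8% in the hypoxic higher-mitochondrial ones. CKB, the brain-type creatine kinase, stood at 378, 1747 and 338 CPM against 105, 326 and 56.2 CPM, with 44.1%, 11.4% and 25.6% of the UMIs in 1 barcode. GDF15, a stress cytokine, stood at 95.8, 227 and 90.7 CPM against 6.37, 59.2 and 12.2 CPM but was seen in only 3.88%, 15.9% and 5.71% of members, and 67.1% of its uninduced UMIs lay in 1 barcode. Mesenchymal genes summed to 14009, 2408 and 4060 CPM against 7600, 3839 and 4687 CPM, higher in the uninduced library and lower in the others. Genes lower in every library included PRRX1 and TWIST1, transcription factors of mesenchyme. TWIST1 stood at 302, 75.4 and 188 CPM against 599, 155 and 371 CPM, ratios of 0.504 (0.459 to 0.552), 0.487 (0.433 to 0.548) and 0.506 (0.474 to 0.539). CXCL14, a chemokine, stood at 420, 64.7 and 129 CPM against 632, 131 and 482 CPM. Hepatocyte genes summed to 255, 4917 and 76.1 CPM against 267, 2223 and 6.22 CPM, and 3 or more of the 9 were seen in 2.91%, 19.8% and 0.357% of the members. The share was 1.84%, 12.7% and 0% in the other low-mitochondrial barcodes, and 4.69%, 26.1% and 0.317% in the hypoxic higher-mitochondrial ones. Cell cycle genes, which mark dividing cells of any type, were at least 2-fold higher for 6 of 10 compared in the uninduced library and for none of 4 in each of the others, with medians of 1.11, 0.79 and 0.26. They summed to 1146, 675 and 667 CPM against 583, 449 and 598 CPM. Haematopoietic genes summed to 55.9, 58.3 and 138 CPM against 111, 156 and 104 CPM, with PTPRC and SPI1 at 0 UMIs in the uninduced members. Comparison within clusters, given further on, holds these cell types more nearly equal.

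The barcodes of all 3 libraries were clustered without the rule genes and the MT- genes, which gave 27 clusters named here by number and leading genes. The hypoxic, low-mitochondrial barcodes did not form 1 cell type. Cluster 6, led by ANKRD37, STC2, IGFBP2, GPI, NMB, ARG2 and PFKFB4, held 589 of the 1507 (39.1%), and all 6 markers of the label were among its 10 leading genes. It carried 14 of 104, 192 of 342 and 383 of 929 of its barcodes as members, which is 13.5% (7.56 to 21.6), 56.1% (50.7 to 61.5) and 41.2% (38.0 to 44.5). The rest lay across clusters of other identity. In the uninduced library 50 members lay in cluster 17 (FABP7, ALX1, GFRA1) and 35 in cluster 16 (COL15A1, DLK1, FMOD), against 14 in cluster 6. In the library labelled 15 days, 51 lay in cluster 23 (ALB, CST1, AFP) and 30 in cluster 22 (NEFL, PRPH, RTN1). Outside cluster 6, the 45-day members were most numerous in cluster 0 (CLDN11, MEOX2, ASPN), with 72 of 1647 barcodes (4.37%), and cluster 10 (HAND1, FOXF1, TCF21), with 60 of 278 (21.6%). They were a larger share of the small clusters 24 (GNRH2, SPINK1, MLN), with 13 of 20 (65.0%, 40.8 to 84.6), and 16, with 16 of 31 (51.6%, 33.1 to 69.8). Several of these clusters were deeper than their libraries, whose medians were 5214, 7222 and 5645 UMIs. Median depth was 12372 UMIs in uninduced cluster 16, and 16223 and 27418 in 15-day clusters 23 and 22. At 45 days it was 11033 in cluster 24 and 11492 in cluster 16. It was lower in others, such as 4216 in uninduced cluster 17 and 4418 in 45-day cluster 10. The part of depth in these counts was not tested.

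The higher share in the induced libraries appeared within clusters too, with all UMIs counted. Of 18 clusters with at least 50 barcodes in both, 15 had a higher share of members in the 15-day than in the uninduced library and 1 a lower one, with intervals apart in 7 and 0 of them. Against the uninduced library the 45-day share was higher in 19 of 20 clusters and lower in none, with intervals apart in 6. Between the induced libraries 11 of 19 were higher and 7 lower at 45 days, with intervals apart for cluster 10 (higher) and clusters 6 and 22 (lower). Depth was not matched here. In the 7 clusters with intervals apart, the 15-day barcodes had a higher median depth than the uninduced ones. In cluster 6 the medians were 4741.5, 7666.5 and 5234 UMIs. Clusters rest on the same cells and genes, and several are related, so these counts are no test. Without the barcodes of cluster 6 the share of members was 5.13% at 15 days and 5.12% at 45 days.

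**Figure D4:**
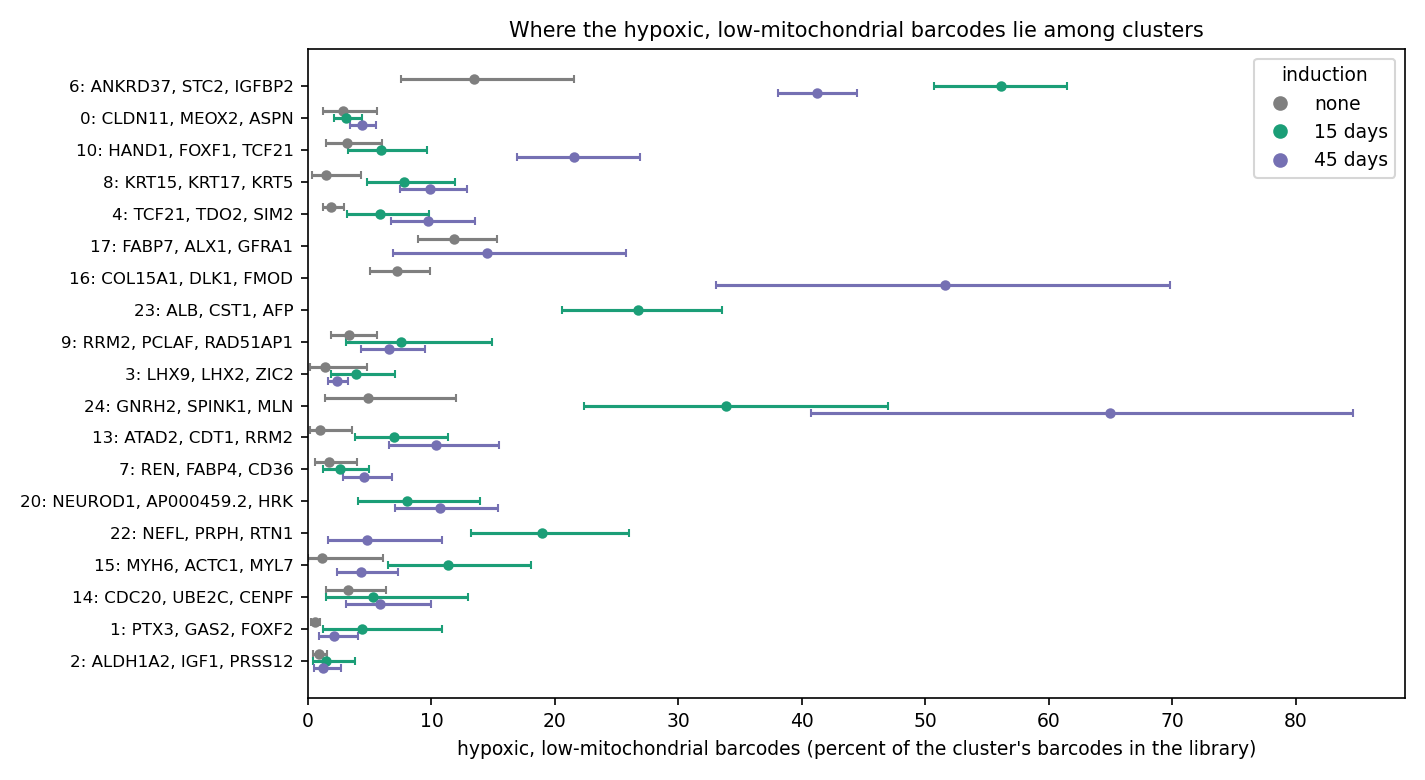
Percent of each cluster's barcodes that met the rule, by library, for the 19 clusters with at least 20 members. Rows give the cluster number and 3 leading genes, points are shares with all UMIs, and bars are exact 95% binomial intervals. Libraries with fewer than 20 barcodes in a cluster are left out. Cluster 6 goes from 13.5% uninduced to 56.1% at 15 days and 41.2% at 45 days.

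Within cluster 6 the members resembled each other across the induced libraries. Their glycolysis genes summed to 16838, 24907 and 25248 CPM, against 13087, 18762 and 17546 CPM in members of other clusters. IGFBP2 stood at 1005, 4906 and 3247 CPM there and at 835, 1166 and 1297 CPM elsewhere. Collagen-modifying enzymes summed to 2073, 3582 and 3599 CPM, and chaperones to 2442, 4020 and 4930 CPM. Epithelial genes were low in the members of cluster 6, at 242, 360 and 266 CPM. The hypoxic higher-mitochondrial barcodes of the cluster had 16625, 20159 and 23712 CPM of glycolysis genes and 446, 339 and 212 CPM of epithelial genes. Their IGFBP2 stood at 2580, 3443 and 2732 CPM, above the members in the uninduced library. Its other low-mitochondrial barcodes had 15666, 17433 and 18238 CPM of glycolysis genes. These traits were thus not all particular to the members. The uninduced values of the members rest on 14 barcodes.

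When each cluster was weighted by its share of the members, the contrast with the other low-mitochondrial barcodes shrank to 14 higher and 4 lower, 21 and 8, and 15 and 1 genes. These weights count barcodes and not UMIs, so deep barcodes also lost weight between clusters. Mean CPM over barcodes, without matching, also lowered the counts in the uninduced and 15-day libraries, as given further on. The drop is thus not due to matched cell types alone. Cluster-matched medians were 0.54, 0.61 and 0.64 for HIF targets and 0.36, 0.62 and 0.53 for glycolysis genes, smaller than unmatched but above 0 in every library. Matching left 3, 2 and 3 HIF targets at least 2-fold higher, from 6, 10 and 11, and 0, 2 and 2 glycolysis genes, from 3, 12 and 9. Medians were -0.03, -0.02 and -0.07 for mesenchymal genes, 0.16, 0.79 and -0.003 for cell cycle genes, and 0.72, 0.33 and 0.34 for epithelial genes. NDRG1 had a cluster-matched log2 ratio of 1.00, 1.44 and 1.04, down from 2.03, 2.26 and 1.84 unmatched. SLC2A1 came to 0.92, 0.80 and 1.02, from 1.76, 1.69 and 1.46. ADM came to 1.28, 0.83 and 1.11, from 2.06, 1.76 and 1.71. DDIT4 came to 0.80, 1.07 and 0.97, from 1.06, 1.49 and 1.39. KRT18 came to 0.72, 0.33 and 0.36 and CKB to 0.17, 0.57 and 0.21. The clusters were built from genes that include these, so matching holds part of the hypoxia response itself equal.

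**Figure D5:**
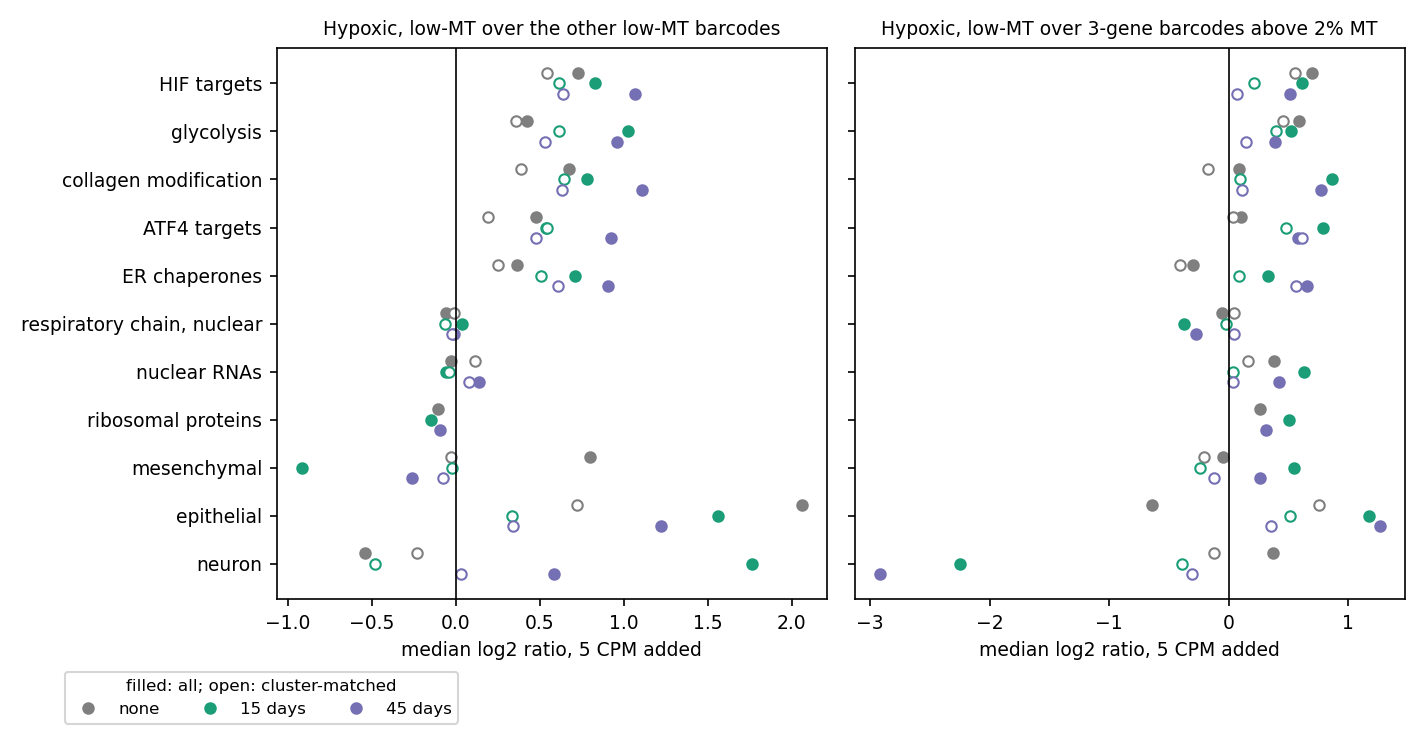
Median log2 ratio (5 CPM added) of 11 gene lists in the hypoxic, low-mitochondrial barcodes of each library, over the other low-mitochondrial barcodes (left) and over the hypoxic higher-mitochondrial barcodes (right). Filled points use all barcodes and open points weight each cluster by its share of members (ribosomal proteins were not matched). HIF targets and glycolysis lie to the right of 0 in all cases, and the mesenchymal list on the left lies near 0 after matching.

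The other comparison held the 6-gene condition equal and asked how the low-mitochondrial barcodes differed from the hypoxic ones above 2%. It gave 29 higher and 108 lower genes of 2794 (1.04% and 3.87%) in the uninduced library, 46 and 378 of 3511 (1.31% and 10.8%) at 15 days and 20 and 238 of 3267 (0.612% and 7.28%) at 45 days. The median of all genes was -0.02, -0.08 and -0.03. Median-of-ratios scaling moved that median by 0.11 at 15 days and 0.13 at 45 days. The MT- genes, which set the groups, had medians of -2.36, -2.65 and -2.32.

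HIF targets were again higher, with medians of 0.70, 0.61 and 0.52, and so were glycolysis genes at 0.59, 0.52 and 0.39. The hypoxic higher-mitochondrial barcodes were deeper, so that 3 of 6 genes was an easier condition for them. DDIT4 stood at 435, 562 and 641 CPM against 183, 246 and 271 CPM, ratios of 2.38 (2.14 to 2.65), 2.29 (2.16 to 2.42) and 2.37 (2.24 to 2.505). ENO1 stood at 1863, 3076 and 2917 CPM against 788, 1710 and 1600 CPM. IGFBP2 had 843, 2319 and 2067 CPM against 396, 697 and 1002 CPM. ENO2, the enolase of neurons and a HIF target, went the other way in the induced libraries: 86.3 CPM against 30.0 CPM uninduced, but 368 and 235 CPM against 513 and 340 CPM. SNHG12, a non-coding RNA that hosts snoRNAs, stood at 69.6, 68.5 and 76.5 CPM against 32.7, 29.1 and 35.2 CPM.

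Several lists were lower in this comparison, markers of another cell type among them. Neuronal genes had medians of 0.37, -2.24 and -2.92, with 11 of 11 and 10 of 11 at least 2-fold lower in the induced libraries. Their summed level was 3673 and 1103 CPM against 15481 and 8447 CPM. Cholesterol synthesis genes had medians of -0.40, -0.89 and -0.90, and heat shock genes of -0.73, -0.15 and -0.50. Nuclear respiratory chain genes were lower at -0.05, -0.37 and -0.27. Ribosomal protein genes were higher at 0.26, 0.50 and 0.31, as were nuclear-retained RNAs at 0.38, 0.63 and 0.43. ACTA2, smooth muscle actin, stood at 38.1, 31.4 and 34.9 CPM against 259, 44.9 and 56.1 CPM. IGFBP7, a secreted protein of vessel-associated cells, stood at 176, 173 and 140 CPM against 515, 288 and 244 CPM.

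Much of this was smaller after matching by cluster, which also weighted clusters by barcodes and not by UMIs. Mean CPM over barcodes, without matching, also gave fewer genes apart at 15 and 45 days. The matching could use 102 of 206, 360 of 460 and 746 of 841 members, and left 19 higher and 35 lower, 10 and 44, and 5 and 17 genes. The respiratory chain medians became 0.05, -0.02 and 0.04 and the neuronal ones -0.12, -0.39 and -0.30. HIF targets came to 0.55, 0.21 and 0.07 and glycolysis genes to 0.46, 0.40 and 0.14, beside all-gene matched medians of 0.03, 0.01 and 0.05. At 45 days the HIF targets thus lay close to all genes. ATF4 targets stood at 0.03, 0.48 and 0.61 and chaperones at -0.41, 0.09 and 0.57. Calls of doublets (2 cells in 1 droplet), which were marked but not removed, differed between the sets: 12.1%, 3.70% and 10.5% of the hypoxic, low-mitochondrial barcodes, 2.67%, 2.06% and 4.49% of the other low-mitochondrial ones, and 23.4%, 14.7% and 27.8% of the hypoxic higher-mitochondrial ones. Leaving doublet calls out raised the number of genes apart at 45 days from 258 to 403.

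Members of the 3 libraries were then compared with each other. The 15-day members had 193 higher and 108 lower genes of 3071 (6.28% and 3.52%) relative to the uninduced members, and the 45-day members 73 and 93 of 2909 (2.51% and 3.2%). These contrasts share the uninduced library. The 45-day members had 18 higher and 108 lower of 3060 (0.588% and 3.53%) relative to the 15-day members. Other non-endothelial barcodes gave 141 and 53 of 3037, 54 and 54 of 2893, and 12 and 53 of 3026. The share of calls that were higher depended on scaling: at 15 days it was 64.1%, and 45.7% with median-of-ratios scaling, which moved the median of all genes by -0.19. At 45 days over uninduced it was 43.98%, 28.8% with that scaling (which moved the median by -0.14) and 62.4% with the mean of CPM over barcodes.

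Glycolysis genes of the members were higher in the induced libraries, with medians of 0.70 at 15 days (7 of 22 at least 2-fold higher) and 0.65 at 45 days (4 of 21). The all-gene medians were 0.18 and 0.13. The other non-endothelial barcodes differed in the same direction, at 0.67 and 0.41, so this was not particular to the members. HIF targets had medians of 0.62 and 0.59, against 0.51 and 0.54 in the other barcodes. Chaperones differed more from the other barcodes, which pool low- and higher-mitochondrial ones: medians of 0.67 and 0.75 in members, and 0.03 and -0.19 in the others. The other low-mitochondrial barcodes of cluster 6 also had more chaperone RNA in the induced libraries, with sums of 1894, 2178 and 2806 CPM. A higher level was thus not particular to the members. HSPA5 stood at 313, 532 and 583 CPM in members and at 295, 296 and 245 CPM in the others. ATF5, a stress-response factor and ATF4 target, stood at 20.2, 81.5 and 136 CPM in members and at 14.6, 23.2 and 25.7 CPM in the others. Within cluster 6 alone, 45-day over 15-day medians were 0.03 for glycolysis, 0.13 for HIF targets and 0.38 for chaperones, with 7 genes higher and 14 lower of 2846 compared.

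Among the genes with the largest ratios between libraries, NEFL, a neurofilament, stood at 7.14, 664 and 97.2 CPM in members, and 92.2% of its 15-day UMIs lay in cluster 22. TTR, transthyretin, stood at 29.8, 1049 and 1.00 CPM, with 97.4% of its 15-day UMIs in cluster 23. ALB had 0 UMIs in the uninduced members, which allows up to 1.79 CPM, and 265 CPM at 15 days, of which 91.7% lay in 1 barcode. DCN, a matrix proteoglycan, stood at 1253, 40.5 and 148 CPM in members and at 580, 76.6 and 120 CPM in the others. KRT5, a basal keratin, had 0 UMIs in the uninduced members and 56.3 and 103 CPM in the induced ones. KRT17 stood at 145, 309 and 896 CPM. Cell cycle genes had medians of -0.84 and -0.81 over uninduced, against -0.44 and -0.15 in the other non-endothelial barcodes. Mesenchymal genes had medians of -2.48 (8 of 10 at least 2-fold lower) at 15 days and -1.61 (7 of 10) at 45 days over uninduced, but 0.33 and 0.26 within cluster 6. NUPR1, a stress-response gene, stood at 86.9, 53.5 and 173 CPM. The 45-day members had 52.8 CPM of NEUROD1, which is 88.7 times the single UMI of the uninduced members (15.8 to 3513).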

How the data were processed

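Gene counts (whole UMIs per gene and barcode, not normalized) of 3 droplet libraries were used as deposited. Per the submitters' processing notes they were made with Cell Ranger 3.0.0 on GRCh38, while the file headers name 3.0.1. The annotation used is not given in the sources used here. No count column of another sample was present. Members, gene lists and comparisons were chosen with earlier results of these data known. UMIs were summed per set and library and scaled to CPM, and log2 ratios had 5 CPM added. Genes with at least 50 CPM in 1 of 2 sums were compared. Genes named were the rule genes and label markers, the 10 highest and 10 lowest with 1 sign in all libraries (or per pair of libraries), and up to 4 per list furthest from 0. Others, such as HIF1A, BNIP3, LDHA, HSPA5, PFKFB4 and KRT18, were chosen after their values were seen. With 1 library per group there is no test. Intervals (exact Poisson, Clopper-Pearson, conditional binomial, Katz for ratios of shares) cover counting error only, since organoids and libraries were not replicated, and a count of 0 allows 3 UMIs. Doublets were called by simulated neighbours (50 neighbours, 0.8% expected per 1000 barcodes) and kept. Clusters came from 2000 variable genes, 30 components, 15 neighbours and Leiden at resolution 1. The ratio and interval code was tested on simulated data. Python 3.11.15, numpy 2.4.6, scipy 1.17.1, pandas 2.3.3, scikit-learn 1.9.0 and leidenalg 0.10.2 were used.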

Additional observations from a re-analysis of the deposited data

Results flagged for a closer look

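The differences between libraries given here were not tested. The summed level of 5 lists in the hypoxic, low-mitochondrial barcodes over the other low-mitochondrial barcodes went to opposite sides of 1 in different libraries (order uninduced, 15 days, 45 days). Mesenchymal genes stood at 1.84 (1.82 to 1.87), 0.627 (0.614 to 0.641) and 0.866 (0.854 to 0.879). Genes of mesenchymal subtypes stood at 1.17 (1.10 to 1.25), 0.400 (0.377 to 0.424) and 0.704 (0.675 to 0.734). Heat shock genes stood at 1.01 (0.962 to 1.05), 1.24 (1.21 to 1.28) and 0.957 (0.933 to 0.981). Immediate early genes stood at 0.919 (0.887 to 0.952), 0.933 (0.910 to 0.957) and 1.22 (1.19 to 1.24). Nuclear respiratory chain genes stayed close to 1, at 0.957 (0.943 to 0.971), 1.02 (1.01 to 1.03) and 0.997 (0.988 to 1.01).

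Barcodes that the rule leaves out showed the 6 genes too. Endothelial barcodes with 3 of the 6 genes and at most 2% MT- UMIs made up 9 of 652 (1.38%, 0.633 to 2.60), 20 of 426 (4.69%, 2.89 to 7.16) and 18 of 271 (6.64%, 3.98 to 10.3). Barcodes under the depth limits had UMIs of 2 of the 6 genes in 11 of 990 (1.11%, 0.556 to 1.98), 13 of 399 (3.26%, 1.75 to 5.51) and 36 of 891 (4.04%, 2.85 to 5.55). In both sets the uninduced library had the lowest share.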

How the results depend on the processing

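No paired analysis was possible because each group is 1 library and no test was made. Thinning to 2000 UMIs, leaving out cluster 6, cluster matching and cluster 6 alone were chosen after seeing the data. Among the other settings listed at the outset for the shares, their ratios and the gene totals, 70 values stayed within the limits set for no change and 50 moved, and no share ratio to the uninduced library fell below 1. Causes were not tested.

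Member shares (uninduced, 15 days, 45 days) were 1.23%, 5.39% and 5.31% at a 1% mitochondrial limit, 3.90%, 13.2% and 13.2% at 5%, 6.59%, 13.6% and 15.9% with 2 genes, and 0.476%, 4.82% and 3.91% with 4. They were 0.0649%, 0.557% and 0.841% thinned to 1000 UMIs, 0.298%, 2.05% and 2.78% thinned to 2000, and 5.13% and 5.12% in the induced libraries without cluster 6. The 15-day over uninduced ratio was 4.37 at 1%, 2.06 with 2 genes, 10.1 with 4, 8.58 and 6.89 thinned to 1000 and 2000, and 2.44 without cluster 6. The 45-day over uninduced ratio was 2.41, 8.21, 12.9, 9.35 and 2.44 under the last 5 of these. The 45-day over 15-day ratio was 1.17 with 2 genes, 0.811 with 4, and 1.51 and 1.36 thinned.

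Genes apart from the other low-mitochondrial barcodes (118, 196 and 79) became 206 and 364 with a floor of 20 CPM (uninduced, 15 days), 41 and 67 with mean CPM, 121 and 51 with 20 CPM added (15 and 45 days), 1344, 333 and 247 thinned to 1000, and 18, 29 and 16 cluster-matched. Genes apart from the hypoxic higher-mitochondrial barcodes (137, 424 and 258) became 264, 755 and 547 with the lower floor, 195 and 84 with mean CPM (15 and 45 days), 2114 and 981 thinned (uninduced, 15 days), 403 without doublet calls (45 days), and 54, 54 and 22 matched. Between libraries (301, 166 and 126 for 15 over 0, 45 over 0 and 45 over 15 days) they became 666, 325 and 280 with the lower floor, 104 with 20 CPM added (45 over 0), 71 with mean CPM (45 over 15), 1694, 1422 and 319 thinned, and 678, 702 and 21 in cluster 6, where the uninduced library has 14 members.

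List medians changed sign as follows. Thinned to 1000, over the other low-mitochondrial barcodes, epithelial genes went to -0.15 uninduced and -0.55 at 15 days, and neuronal genes to -0.76 at 15 and -0.44 at 45 days. Thinned, over the hypoxic higher-mitochondrial barcodes, the 15-day medians were -0.47 (epithelial), 0.11 (respiratory chain) and 1.60 (neuronal), and the 45-day ones -0.065 (collagen modification), -0.33 (mesenchymal), 0.12 (respiratory chain) and 0.65 (neuronal). Thinned, the epithelial median was 1.26 for 45 over 0 and 0.36 for 45 over 15 days. Matched, mesenchymal genes went to -0.026 (uninduced) and neuronal genes to -0.48 (15 days) over the other low-mitochondrial barcodes, and over the hypoxic higher-mitochondrial barcodes epithelial genes to 0.76 (uninduced), mesenchymal genes to -0.24 (15 days) and -0.12 (45 days), and the respiratory chain to 0.045 (45 days). In cluster 6 mesenchymal genes went to 0.33 (15 over 0) and 0.26 (45 over 0). The uninduced values rest on 206 members, 14 of them in cluster 6, and on 6 after thinning to 1000.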
